A study of Sus scrofa with 41 samples.

Results

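The 9 genes described here build, break down or control glycogen in skeletal muscle: PYGM, PHKA1, PHKG1, GYS1, GYG1, UGP2, GBE1, PRKAG3 and PPP1R3A. They were taken by their pig symbols, all 9 were found among the 25880 genes in the count files, and all 9 were among the 11146 genes that passed the filter on low counts. The samples were psoas major muscle, the tenderloin, of 41 purebred uncastrated boars, 13 Danbred Duroc and 28 Danbred Landrace, which had free access to feed at 1 breeding station until a common target weight. The pigs differed in feed conversion ratio (FCR, read here as feed eaten per unit of weight gained, so that a low value marks an efficient pig), in the RNA integrity number of the sample (RIN, where a high value marks intact RNA), in age and in slaughter batch. FCR ran from 1.83 to 2.18 in Duroc and from 1.92 to 2.25 in Landrace, RIN from 7 to 8.8 and from 6.5 to 8.3, and age from 131 to 156 days and from 147 to 166 days. The questions were whether the genes differed between the breeds and whether they changed with RIN, age and FCR.

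Glycogen is the branched store of glucose in muscle. Synthesis starts from UDP-glucose, which is made by the pyrophosphorylase UGP2, on a primer formed by glycogenin (GYG1). Glycogen synthase (GYS1) lengthens the chains, and the branching enzyme (GBE1) adds the branch points. Muscle glycogen phosphorylase (PYGM) releases glucose-1-phosphate from the chains, and it is switched on by phosphorylase kinase, which holds the muscle regulatory subunit PHKA1 and the muscle catalytic subunit PHKG1. PRKAG3 is a regulatory subunit of the energy sensor AMP-activated protein kinase (AMPK) found mainly in fast, glycolytic fibres, and a variant of it in pigs is known for high muscle glycogen and acid meat. PPP1R3A anchors protein phosphatase 1 to glycogen, where the phosphatase activates glycogen synthase and switches phosphorylase off. Fast fibres use glycogen more than slow, oxidative fibres do.

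The libraries held 22188911 to 25954816 counts on genes per pig, with a median of 25243577, and no pair of libraries agreed within counting noise. The skeletal muscle markers ACTA1, CKM and DES together ran from 101575 to 187525 CPM over the pigs (CPM, counts scaled to a common library size), while the liver markers took 2.76 to 17.8 CPM. A fibre score, the mean standardized level of 6 slow fibre markers minus that of 6 fast fibre markers, was 0.63 ± 0.853 (SD, n = 13) in Duroc and -0.29 ± 1.44 (SD, n = 28) in Landrace. The sample of 1 pig, Landrace 8, stood apart. It had the highest fibre score of all 41 pigs (4.74), the lowest PYGM, PHKA1, PHKG1 and PRKAG3 and the highest GBE1, at a RIN of 7.8 and an FCR of 2.22. The results below are therefore also given without it where they rest on it. In whole tissue, fewer cells of a type and less RNA per cell cannot be told apart.

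Among the breakdown genes, PYGM was covered by 252489 to 558984 counts per pig. Its level was 17308 ± 2958 CPM (SD, n = 13) in Duroc, with a lowest value of 14342, a median of 16865 and a highest of 24826, and 18278 ± 3512 CPM (SD, n = 28) in Landrace, where the lowest was 8900, the median 17704 and the highest 26043. The breeds overlapped almost fully for this gene, and 17 of 28 Landrace pigs lay above the Duroc median. PHKA1 had 563 ± 85.8 CPM in Duroc (lowest 391, median 577, highest 691) and 680 ± 115 CPM in Landrace (lowest 385, median 701, highest 916). Here 15 of the 28 Landrace pigs lay above every Duroc pig. PHKG1 had 156 ± 31.6 CPM in Duroc (lowest 103, median 159, highest 216) and 152 ± 28.2 CPM in Landrace (lowest 88.1, median 146, highest 219), with the breeds intermixed.

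Among the synthesis genes, the clearest separation by breed was that of UGP2. It had 169 ± 30.3 CPM in Duroc (lowest 108, median 164, highest 222) and 114 ± 21.8 CPM in Landrace (lowest 56.9, median 112, highest 160). No Landrace pig reached the Duroc median, and 9 of 13 Duroc pigs lay above every Landrace pig. GYG1 had 116 ± 30.5 CPM in Duroc (lowest 44.5, median 118, highest 166) and 112 ± 21.0 CPM in Landrace (lowest 41.9, median 108, highest 158). GYS1 had 675 ± 106 CPM in Duroc (lowest 535, median 644, highest 883) and 694 ± 130 CPM in Landrace (lowest 471, median 694, highest 1140). Both genes overlapped widely between the breeds, and for GYS1 2 Landrace pigs lay above and 2 below every Duroc pig. GBE1 was the least covered of the 9 genes, with 59 to 692 counts per pig, and had 11.0 ± 2.45 CPM in Duroc (lowest 6.97, median 10.6, highest 15.7) and 9.73 ± 3.69 CPM in Landrace (lowest 4.10, median 9.01, highest 24.4).

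Of the control genes, PRKAG3 had 70.5 ± 10.5 CPM in Duroc (lowest 57.3, median 67.4, highest 91.9) and 96.3 ± 20.6 CPM in Landrace (lowest 40.6, median 94.5, highest 143). Of the 28 Landrace pigs, 27 lay above the Duroc median and 18 above every Duroc pig. The exception was Landrace 8, the lowest of all pigs. PPP1R3A had 284 ± 80.9 CPM in Duroc (lowest 67.8, median 308, highest 394) and 255 ± 69.1 CPM in Landrace (lowest 74.6, median 269, highest 382), and its 3 lowest values came from the 3 pigs with the lowest RIN.

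**Figure D1:**
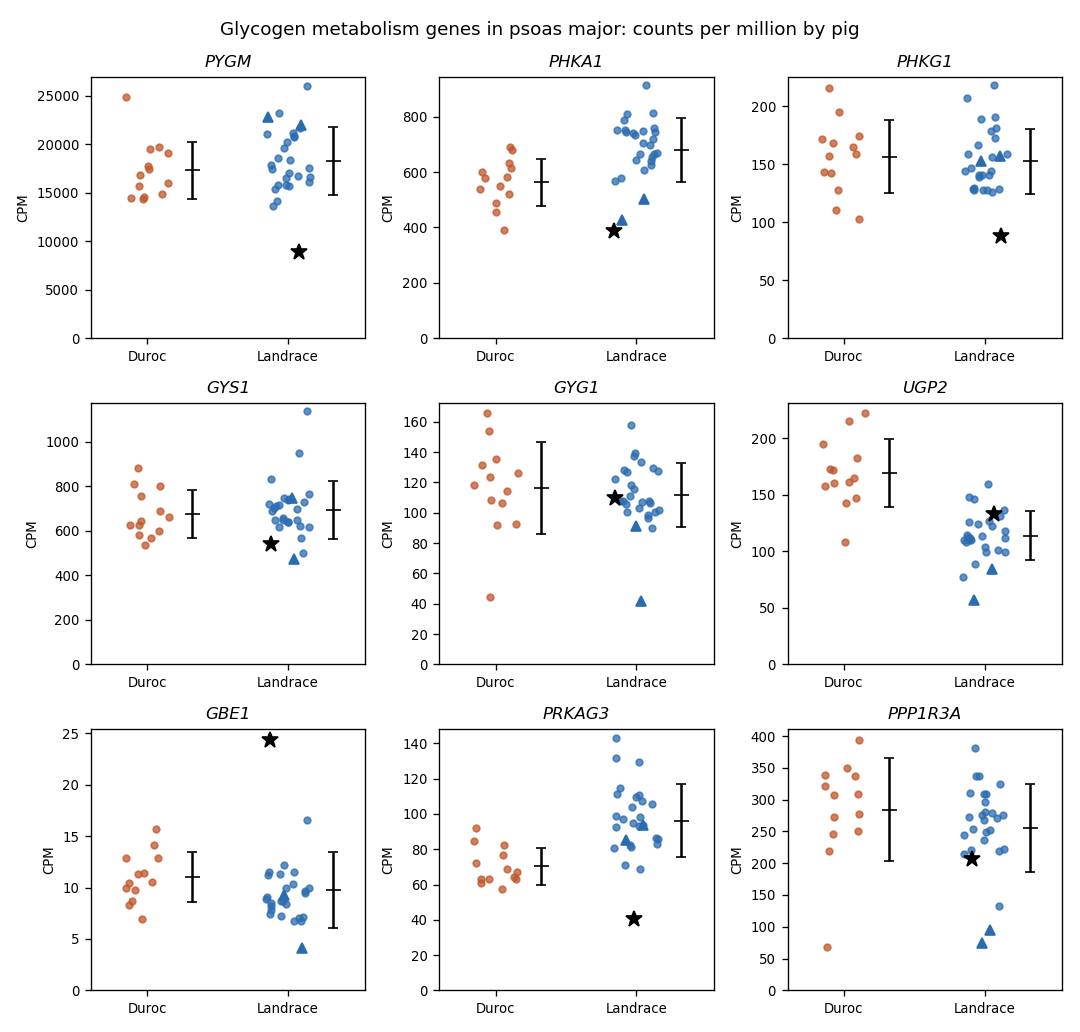
Scaled counts (CPM, linear axes from 0) of each glycogen gene in each of the 13 Duroc and 28 Landrace pigs. Points are pigs, the bar beside them is the mean ± SD, triangles mark the 2 Landrace pigs with a RIN below 7 and the star marks Landrace 8. UGP2 sits lower and PRKAG3 higher in most Landrace pigs, while PYGM, PHKG1, GYS1 and GYG1 overlap.

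The breeds were compared in a model that held FCR, RIN, age and batch together with breed, fitted to all genes by the quasi-likelihood test of edgeR. With breed, 5 of the 9 genes passed a false discovery rate (FDR) of 0.1, against 33.1% of all genes tested (15.6% higher and 17.5% lower in Landrace). PYGM, PHKA1 and PRKAG3 rose in Landrace relative to Duroc, and UGP2 and GBE1 fell. The median log2 difference of the 9 genes was 0.23, beside -0.0024 for all genes. DESeq2 and limma called the same 5 genes, against 34.6% and 32.9% of the genes they tested.

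PHKA1 was 1.42-fold higher in Landrace (log2 difference 0.51, SE 0.105, edgeR FDR = 0.000667). PRKAG3 was 1.47-fold higher (log2 0.55, SE 0.154, edgeR FDR = 0.00805). PYGM was 1.23-fold higher (log2 0.30, SE 0.115, edgeR FDR = 0.0493), although the ratio of the unadjusted means was only 0.08 on the log2 scale. The genes that were lower in Landrace both belong to synthesis, namely UGP2 at 0.763 times the Duroc level (log2 -0.39, SE 0.124, edgeR FDR = 0.0189) and GBE1 at 0.695 times (log2 -0.53, SE 0.173, edgeR FDR = 0.0239). The direction of all 5 was the same in each of the 4 slaughter batches that held both breeds. Within these batches the unadjusted log2 difference was 0.13 to 0.40 for PHKA1, 0.16 to 0.63 for PRKAG3, 0.07 to 0.22 for PYGM, -0.68 to -0.34 for UGP2 and -0.40 to -0.28 for GBE1. The other 4 genes did not pass: PHKG1 at 0.15 (edgeR FDR = 0.430), GYS1 at -0.09 (FDR = 0.636), GYG1 at 0.23 (FDR = 0.286) and PPP1R3A at 0.24 (FDR = 0.278). Their log2 ratios of unadjusted means had the opposite sign, at -0.04, 0.04, -0.06 and -0.15. For PHKA1, PRKAG3, UGP2 and GBE1 this ratio was 0.27, 0.45, -0.57 and -0.18.

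Markers of fibre type moved with breed too. Of the fast fibre markers 4 of 6 tested were higher and none lower in Landrace, and of the slow fibre markers 2 of 6 were lower and none higher. The summed fast markers ran from 27858 to 52809 CPM in Duroc and from 19999 to 71876 CPM in Landrace, and the summed slow markers from 4623 to 14878 CPM and from 1526 to 18489 CPM. MYH7, MYOZ2, MYH1, MYH4 and MYLPF were not found under these symbols and do not enter the score. With the fibre score added to the model, 2 of the 9 genes passed for breed in place of 5, and 2339 of all genes in place of 3692. PHKA1 (log2 0.30, edgeR FDR = 0.0380) and UGP2 (-0.40, FDR = 0.0583) were those 2, while PRKAG3 came to 0.32 (FDR = 0.185), PYGM to 0.05 (FDR = 0.790) and GBE1 to -0.15 (FDR = 0.571). All 3 endothelial markers tested were lower in Landrace as well, with summed levels of 47.8 to 145 CPM in Duroc and 27.2 to 121 CPM in Landrace, and 1 of 3 adipocyte, 1 of 7 leukocyte and 1 of 5 fibroblast markers were lower and none higher, as was the 1 liver marker tested (APOA1, edgeR FDR = 0.00358). Of the 3 skeletal muscle markers, ACTA1 (log2 0.38, edgeR FDR = 0.0115) and CKM (0.24, FDR = 0.0545) were higher in Landrace. An adipocyte score was the mean standardized level of the 3 adipocyte markers tested. These did not move together with breed: ADIPOQ was lower in Landrace (log2 -2.67, edgeR FDR = 0.0451), while FABP4 (0.25, FDR = 0.576) and PLIN4 (0.35, FDR = 0.170) did not pass. The score was -0.22 ± 0.631 (SD, n = 13) in Duroc and 0.10 ± 0.495 (SD, n = 28) in Landrace. With it added to the model the same 5 genes passed for breed, but it may follow adipocyte content poorly. The part of the endothelial, leukocyte, fibroblast, liver and skeletal muscle markers was not tested. Without Landrace 8 the same 5 genes passed, with log2 differences of 0.47 for PHKA1, 0.49 for PRKAG3, 0.26 for PYGM, -0.37 for UGP2 and -0.42 for GBE1.

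**Figure D2:**
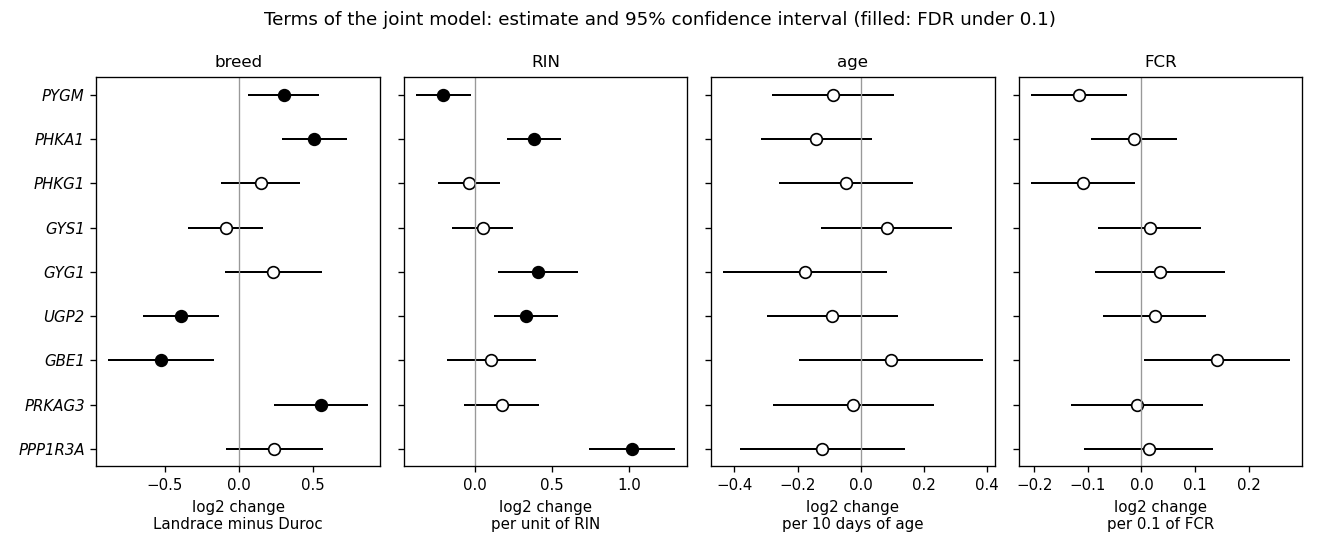
Estimates (points) with 95% confidence intervals (lines) of the log2 change of each glycogen gene in the joint model of 41 pigs, for breed (Landrace minus Duroc), for 1 unit of RIN, for 10 days of age and for 0.1 of FCR. Filled points passed an FDR of 0.1: 5 genes for breed, 5 for RIN, and none for age or FCR.

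The lowest FDR of any of the 9 genes in any term of the model was that of PPP1R3A with RIN. Its level lay between 67.8 and 244 CPM (median 114) in the 6 pigs with a RIN below 7.5 and between 207 and 394 CPM (median 277) in the other 35 pigs. The 3 lowest pigs were Duroc 10 with 67.8 CPM at a RIN of 7, Landrace 27 with 74.6 CPM at 6.6 and Landrace 1 with 94.8 CPM at 6.5. In the model PPP1R3A rose 2.02-fold per unit of RIN (log2 1.02, SE 0.135, edgeR FDR = 3.36e-07), a larger change than that of 99.0% of all genes tested. RIN took 56.5% of the variance of its log2 CPM, where the median over all genes was 8.21%. Its change had the same sign in each breed fitted alone, where it passed in Landrace (log2 0.96, edgeR FDR = 1.40e-05) and not in Duroc (log2 1.39, FDR = 0.232, unadjusted p = 0.0204), where Duroc 10 was the only pig with a RIN below 7.5. The change also had the same sign in each batch of 9 or more pigs, at 0.92 in batch 2, 0.59 in batch 3 and 1.31 in batch 5. Such slopes within a batch were fitted by least squares on log2 CPM with breed as the only other term, without FCR or age. RIN ran from 6.5 to 8.3 in batch 2 and from 6.6 to 8.2 in batch 5, but only from 7.7 to 8.3 in batch 3.

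Across the 9 genes, 5 passed for RIN, against 51.8% of all genes tested (23.9% higher and 27.9% lower with RIN). DESeq2 and limma called the same 5, against 52.3% and 50.1%. Besides PPP1R3A, PHKA1 rose with RIN (log2 0.38 per unit, SE 0.0826, edgeR FDR = 0.000276), as did GYG1 (0.41, SE 0.125, FDR = 0.00780, and 0.12, 0.35 and 0.92 in batches 2, 3 and 5) and UGP2 (0.33, SE 0.0992, FDR = 0.00708). PYGM went the other way (-0.21, SE 0.0853, edgeR FDR = 0.0478): the 6 pigs with a RIN below 7.5 had 21126 to 26043 CPM of it (median 22385), and the other 35 had 8900 to 23212 CPM (median 16865). The call for PYGM was the least firm, since it was lost without the lone pig of batch 1 (-0.17, edgeR FDR = 0.102), without the 2 pigs with a RIN below 7 (-0.21, FDR = 0.187) and with no filter on low counts (-0.14, FDR = 0.312). Without TMM scaling its estimate was 0.10 (edgeR FDR = 0.222), but there the median change of all genes was positive and larger. That sign is therefore relative to a shift of all genes. Within batches 2, 3 and 5 the change of PYGM per unit of RIN was -0.20, 0.10 and -0.30. Batch 3 had the other sign, but over its narrow range of RIN (7.7 to 8.3, 9 pigs). GYG1 no longer passed when its counts were summed over the strand-specific columns (0.13, edgeR FDR = 0.263). UGP2 no longer passed without the 2 pigs with a RIN below 7 (0.22, edgeR FDR = 0.172), and in batch 3 its change per unit of RIN was -0.49, against 0.21 and 0.70 in batches 2 and 5.

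PHKG1 (-0.04 per unit of RIN), GYS1 (0.05), GBE1 (0.11) and PRKAG3 (0.17) did not pass. Within Landrace alone 4 of the 9 genes passed (PHKA1, GYG1, UGP2 and PPP1R3A), beside 42.9% of all genes, and all 4 rose with RIN, as did 19.8% of all genes. Within Duroc edgeR called 0 of the 9 and 0% of all genes. At an unadjusted p under 0.05 there were 3 of the 9 (PHKA1, GYG1 and PPP1R3A) and 17.4% of all genes, again with Duroc 10 as the only pig below 7.5, and DESeq2 and limma were not run there. Fibre markers moved with RIN as well: 5 of 6 slow markers fell with RIN and none rose, and of the fast markers 2 rose and 3 fell. Of the fibroblast markers 2 of 5 rose with RIN, LUM (log2 1.06 per unit, edgeR FDR = 0.000717) and COL3A1 (0.93, FDR = 0.00868), while 1 of 7 leukocyte markers (CD3E, -0.67, FDR = 0.0758) and the muscle marker DES (-0.35, FDR = 0.000954) fell. The part of these 3 lists in the changes with RIN was not tested. With the fibre score in the model the same 5 genes passed for RIN and GBE1 passed too (0.24, edgeR FDR = 0.0872), with PYGM at -0.29 (FDR = 0.000436). The change with RIN was not shown to differ between the breeds for any of the 9 genes, where the interaction gave 0 calls in edgeR (0% of all genes), 0 at an unadjusted p under 0.05 (4.85% of all genes) and a lowest FDR of 0.947.

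**Figure D3:**
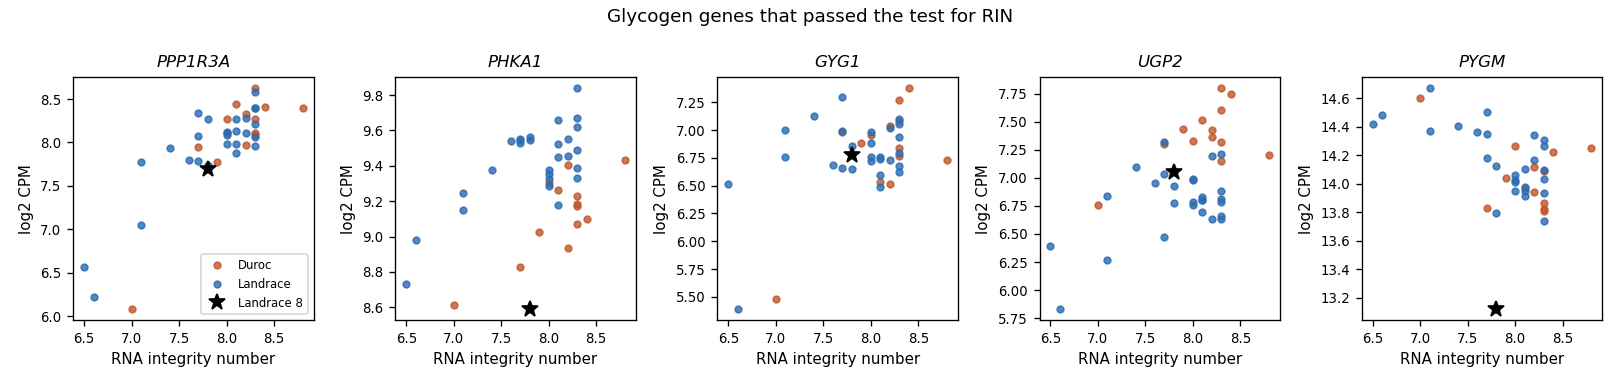
Log2 CPM (log scale) against RNA integrity number in each of 41 pigs for the 5 glycogen genes that passed the test for RIN. Orange points are Duroc, blue points Landrace, and the star is Landrace 8. PPP1R3A is lowest in the 3 pigs with the lowest RIN, of which 1 is Duroc, and the 6 pigs below a RIN of 7.5 have 21126 to 26043 CPM of PYGM.

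For 3 of the 9 genes the level depends on how strands were counted. The deposited columns that count each strand apart summed to 201% of the unstranded count for GYG1, 152% for GYS1 and 119% for PHKG1, and to 100% or 101% for the other 6 (median of all genes 100%). STAR leaves out of the unstranded count those pairs that meet a gene on each strand, and in the strand sums pairs of both genes can enter, so the levels of these 3 genes are uncertain. In the RefSeq annotation of Sscrofa11.1, PHKG1 (chromosome 3, 16822042 to 16831054) overlaps SUMF2, GYS1 (chromosome 6, 54234600 to 54250211) overlaps a long noncoding RNA, and GYG1 (chromosome 13, 89221086 to 89259569) overlaps no annotated gene, so the source of its difference was not established. With the strand sums GYG1 no longer passed for RIN (log2 0.13, edgeR FDR = 0.263), PYGM did not pass (-0.13, FDR = 0.202) and PRKAG3 passed (0.24, FDR = 0.0863). The breed calls were the same 5 genes.

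With age, edgeR called 0 of the 9 genes, against 1.76% of all genes tested, and 0 had an unadjusted p under 0.05, against 16% of all genes. DESeq2 and limma called 0 as well, against 5.06% and 2.52%. The changes per 10 days lay between -0.18 (GYG1, SE 0.127, edgeR FDR = 0.516) and 0.09 (GBE1, SE 0.142, FDR = 0.790), and the lowest FDR was that of PHKA1 (-0.14, SE 0.0850, FDR = 0.420).

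With FCR, edgeR called 0 of the 9 genes and 0% of all genes tested. At an unadjusted p under 0.05 there were 3 of the 9, against 8.68% of all genes. DESeq2 also called 0 (0.0464% of all genes) with 3 at that level (9.08%), and limma 0 (0%) with 2 (8.82%). PYGM was at -0.12 per 0.1 of FCR (SE 0.0432, unadjusted p = 0.0108, edgeR FDR = 0.529), PHKG1 at -0.11 (SE 0.0472, p = 0.0263, FDR = 0.543) and GBE1 at 0.14 (SE 0.0662, p = 0.0395, FDR = 0.559). Some markers had similar unadjusted p without passing: the fast fibre markers TNNI2 (-0.13, p = 0.0241, edgeR FDR = 0.535), TNNT3 (-0.11, p = 0.0301, FDR = 0.550) and TNNC2 (-0.10, p = 0.0389, FDR = 0.559), and the adipocyte marker ADIPOQ (1.09, p = 0.0101, FDR = 0.529). The other fast markers ATP2A1 (-0.02, unadjusted edgeR p = 0.797), ACTN3 (-0.05, p = 0.385) and PVALB (-0.19, p = 0.211) did not, nor did the adipocyte markers FABP4 (0.09, p = 0.414) and PLIN4 (-0.01, p = 0.879). With the fibre score in the model PYGM was at -0.09, PHKG1 at -0.09 and GBE1 at 0.09 per 0.1 of FCR. The other 6 genes lay between -0.01 and 0.03, with 95% intervals from -0.13 at the lowest to 0.15 at the highest.

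In the pigs themselves, the median of PYGM was 17414 CPM in the 7 Duroc pigs at or below the median FCR of their breed and 15858 CPM in the 6 above it, and 18334 CPM in the 15 Landrace pigs at or below and 16534 CPM in the 13 above. These groups overlapped in both breeds, from 15668 to 26043 CPM and from 8900 to 23212 CPM in Landrace. For GBE1 these medians were 9.96 and 12.1 CPM in Duroc and 8.71 and 9.46 CPM in Landrace, and the groups overlapped again. Within batches 2, 3 and 5 the change of PYGM per 0.1 of FCR was -0.11, -0.31 and -0.18, that of PHKG1 was -0.09, -0.27 and -0.11, and that of GBE1 was 0.15, 0.36 and 0.15. These slopes were fitted by least squares with breed as the only other term, without RIN or age. Batch 3, with the largest values, is the batch of Landrace 8.

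Without Landrace 8 the estimates were smaller: -0.09 for PYGM (unadjusted p = 0.0231, edgeR FDR = 0.745), -0.08 for PHKG1 (p = 0.0752, FDR = 0.782) and 0.10 for GBE1 (p = 0.120, FDR = 0.808). Within Landrace alone, Landrace 8 included, they were -0.10, -0.07 and 0.15. Leaving it out gave -0.05, -0.03 and 0.05, each moved by more than 1.5 times. Within Duroc they were -0.14, -0.09 and 0.14. Both breeds gave 0 of the 9 genes in edgeR, DESeq2 and limma, also at an unadjusted p under 0.05. In edgeR 0% of all genes passed in either breed, and 5.5% in Landrace and 5.37% in Duroc had an unadjusted p under 0.05. The FCR by breed interaction likewise gave 0 calls in the 3 tools and 0 at an unadjusted p under 0.05 (0% and 5.22% of all genes in edgeR), with a lowest edgeR FDR of 0.938, so a difference in slope between the breeds was not shown.

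**Figure D4:**
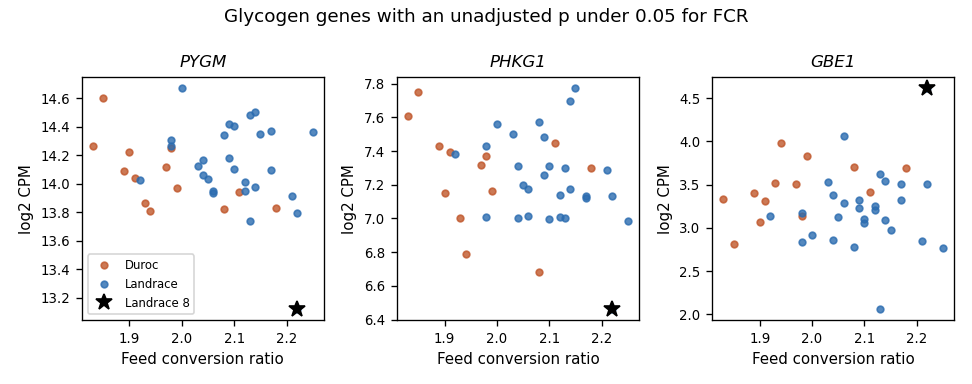
Log2 CPM (log scale) against feed conversion ratio for the 3 glycogen genes with an unadjusted p under 0.05 for FCR. Points are 41 pigs, orange Duroc and blue Landrace. The star, Landrace 8, is the lowest pig for PYGM and PHKG1 and the highest for GBE1 at an FCR of 2.22, and none of the 3 slopes passed the FDR.

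The 9 genes were also compared with each other over the pigs, on log2 CPM adjusted for breed, RIN, age, FCR and batch. Of the 36 pairs, 29 had a positive Pearson correlation, and 21 pairs passed a Benjamini-Hochberg value of 0.1 over the 36 (17 positive and 4 negative). The permutations shuffled the adjusted values over all 41 pigs, not within batches. They took no account of the terms fitted before, which left 32 degrees of freedom, so their p can be too small. GYS1 with PPP1R3A (adjusted 0.0911) and GBE1 with PRKAG3 (adjusted 0.0953) passed narrowly. The share of all pairs of tested genes that would pass was not computed. The median r was 0.26, beside -0.0050 over all pairs of tested genes, and was 0.14 on unadjusted log2 CPM, 0.21 without the 2 pigs with a RIN below 7, 0.30 in Landrace alone and 0.28 without Landrace 8. In 14 pairs Spearman's rho passed as well. Of the unadjusted log2 CPM 18 pairs passed, in the Landrace pigs alone 16, and without Landrace 8 20.

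Of the 3 pairs of breakdown genes, both pairs with PYGM passed in both measures. PYGM and PHKA1 had r = 0.702 (permutation p = 1e-05, the smallest that 100000 permutations give, adjusted 0.00018) and rho = 0.518 (permutation p = 0.00061, adjusted 0.00732), with r = 0.496 without the 2 pigs farthest from the median of PYGM. Within batches 2, 3 and 5 this r was 0.490, 0.874 and 0.280. PYGM and PHKG1 had r = 0.589 (permutation p = 0.00019, adjusted 0.00137) and rho = 0.370 (permutation p = 0.0185, adjusted 0.0605), but r = 0.340 without the 2 farthest pigs and -0.0967 in batch 2. PHKA1 and PHKG1 had r = 0.439 (permutation p = 0.0044, adjusted 0.0106), but rho = 0.249 did not pass (permutation p = 0.117, adjusted 0.226), and r was 0.193 without the 2 farthest pigs and -0.0405 and -0.0054 in batches 2 and 5. In the order given, r of these 3 pairs was 0.186, 0.687 and 0.115 on unadjusted log2 CPM. Without Landrace 8 it was 0.568, 0.498 and 0.310 on the adjusted values. PYGM and the branching enzyme GBE1 went opposite ways, with r = -0.655 (permutation p = 1e-05, adjusted 0.00018) and rho = -0.593 (permutation p = 8e-05, adjusted 0.00288), and r = -0.488 without the 2 farthest pigs. That relation was negative in batches 2, 3 and 5 (-0.308, -0.861 and -0.205) and in both breeds (Landrace -0.641, Duroc -0.832).

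Among the synthesis genes, 2 of the 6 pairs passed in both measures. GYS1 and GYG1 had r = 0.548 (permutation p = 0.00035, adjusted 0.00162) and rho = 0.546 (permutation p = 0.00029, adjusted 0.00522), with 0.461 without the 2 farthest pigs and 0.456, 0.316 and 0.741 in batches 2, 3 and 5. GYG1 and UGP2 had r = 0.523 (permutation p = 0.00043, adjusted 0.00172) and rho = 0.449 (permutation p = 0.00366, adjusted 0.0320), with 0.349 without the 2 farthest pigs and 0.365, 0.139 and 0.734 in the batches. GYS1 and UGP2 had r = 0.382 (permutation p = 0.0141, adjusted 0.0317), but rho = 0.168 did not pass (permutation p = 0.293, adjusted 0.444) and r was 0.0911 without the 2 farthest pigs. GBE1 had r = 0.375 with GYG1 (permutation p = 0.0168, adjusted 0.0356), without passing in rho (0.293, permutation p = 0.0653, adjusted 0.147), and r = 0.0514 with GYS1 and 0.116 with UGP2, which did not pass. GYS1 also went with genes outside synthesis, with r = 0.578 for PHKG1 (permutation p = 0.00015, adjusted 0.00135, and rho = 0.347, permutation p = 0.0270, adjusted 0.0811). That r was 0.360 without the 2 farthest pigs, 0.194 in Duroc and 0.0173, 0.903 and 0.648 in batches 2, 3 and 5. GYS1 had r = 0.555 with PRKAG3 (permutation p = 0.00052, adjusted 0.00187, and rho = 0.403, permutation p = 0.00909, adjusted 0.0454), which was 0.525 without the 2 farthest pigs and 0.287, 0.872 and 0.173 in the batches.

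The phosphatase anchor PPP1R3A passed in both measures with PHKA1, at r = 0.353 (permutation p = 0.0245, adjusted 0.0464) and rho = 0.426 (permutation p = 0.00602, adjusted 0.0361), with 0.40 without the 2 farthest pigs and 0.411, 0.425 and 0.577 in batches 2, 3 and 5. It also passed with UGP2, at r = 0.441 (permutation p = 0.00396, adjusted 0.0106) and rho = 0.376 (permutation p = 0.0158, adjusted 0.0570), with 0.316 without the 2 farthest pigs and 0.0203, 0.0970 and 0.680 in the batches. With GYG1 it had the highest value, r = 0.589 (permutation p = 9e-05, adjusted 0.00108) and rho = 0.440 (permutation p = 0.00445, adjusted 0.0320), with 0.401 without the 2 farthest pigs, but its r was 0.178, -0.558 and 0.871 in the 3 batches and so did not hold in batch 3. The pair of PYGM and GYS1 rested on the 2 farthest pigs, since r fell from 0.363 (permutation p = 0.0236, adjusted 0.0464) to -0.0908 and rho was -0.0220 (permutation p = 0.891, adjusted 0.914). The pair of PYGM and PRKAG3 was likewise weaker without them, at 0.210 in place of 0.592 (permutation p = 0.00032, adjusted 0.00162; rho 0.330, permutation p = 0.0351, adjusted 0.0902).

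The fibre score and the adipocyte score of 3 markers, adjusted in the same way, were set against each gene, which made 18 relations. PYGM had r = -0.724 with the fibre score (permutation p = 1e-05, adjusted 0.00018, and rho = -0.598, permutation p = 0.00014, adjusted 0.00126), so pigs with a higher score of slow minus fast markers had less phosphorylase transcript. The r was -0.607 without the 2 farthest pigs and -0.387, -0.871 and -0.603 in batches 2, 3 and 5. GBE1 went the other way, at r = 0.590 (permutation p = 5e-05, adjusted 0.00045, and rho = 0.568, permutation p = 0.00016, adjusted 0.00126), with 0.455 without the 2 farthest pigs and 0.316, 0.912 and 0.0447 in the batches. PHKA1 had r = -0.620 (permutation p = 1e-04, adjusted 0.000585) and rho = -0.481 (permutation p = 0.00173, adjusted 0.00623), with -0.444 without the 2 farthest pigs, and PHKG1 had r = -0.585 (permutation p = 0.00013, adjusted 0.000585) and rho = -0.549 (permutation p = 0.00028, adjusted 0.00126), with -0.642. Neither held in every batch, since batch 5 gave 0.151 for PHKA1 and batch 2 gave 0.0035 for PHKG1. PRKAG3 had r = -0.481 (permutation p = 0.00228, adjusted 0.00821), with rho = -0.303 (permutation p = 0.0553, adjusted 0.166), -0.245 without Landrace 8 and 0.235 in batch 2. GYS1 had r = -0.376 (permutation p = 0.0165, adjusted 0.0426), but rho = -0.120 did not pass (permutation p = 0.453, adjusted 0.640), and r was -0.243 without Landrace 8 and 0.210 in batch 2. GYG1, UGP2 and PPP1R3A had r between -0.17 and -0.04. With the adipocyte score GYG1 was the gene that passed, at r = -0.431 (permutation p = 0.00538, adjusted 0.0161) and rho = -0.551 (permutation p = 0.00021, adjusted 0.00126), with -0.418 without the 2 farthest pigs and -0.638, -0.417 and -0.432 in the 3 batches. The other 8 genes had r between -0.253 (PRKAG3) and 0.115 (GBE1) with it.

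**Figure D5:**
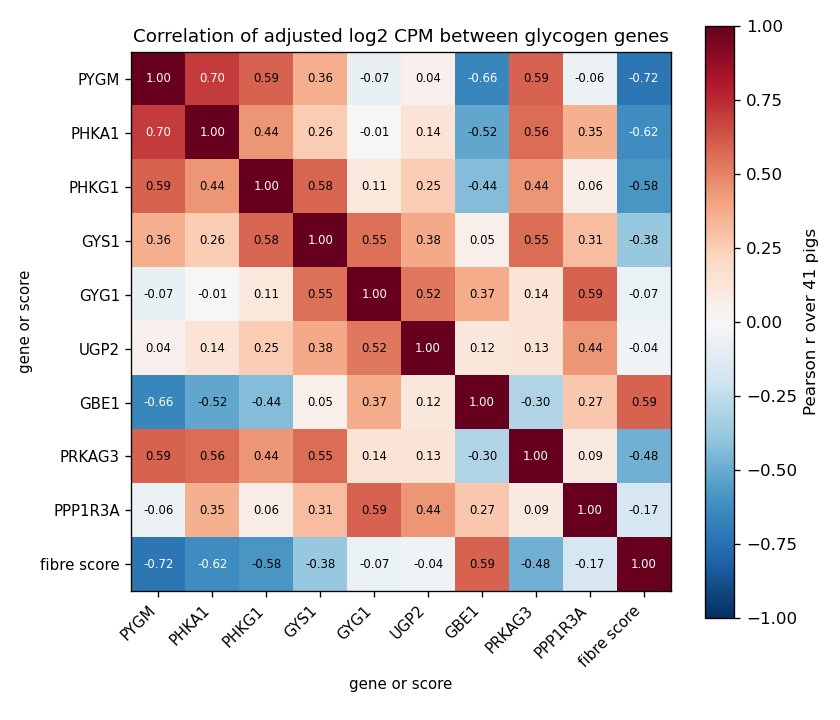
Pearson correlations over 41 pigs between the 9 glycogen genes and the fibre score (slow minus fast markers), on log2 CPM adjusted for breed, RIN, age, FCR and batch. Red is positive and blue negative. PYGM, PHKA1 and PHKG1 are positive with each other and negative with GBE1 and the fibre score. PRKAG3 shows the same signs over the 41 pigs, but in Duroc alone its r is between -0.0399 and 0.0949 with PYGM, PHKA1, PHKG1 and GBE1. Without Landrace 8 its r with GBE1 is -0.0497 in place of -0.301, and 0.375, 0.351 and 0.301 with PYGM, PHKA1 and PHKG1. GYS1 is positive with GYG1, PHKG1 and PRKAG3.

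For each of the 9 genes the most similar other gene was the one with the highest correlation of adjusted log2 CPM over the 41 pigs. For PYGM this was the glycolytic enzyme ALDOA (r = 0.911, and 0.865 without Landrace 8). GYG1 was closest to STRADB (0.904), PPP1R3A to FBXO11 (0.855), GYS1 to MLEC (0.834), UGP2 to PANK4 (0.819) and PHKA1 to EFCAB7 (0.805). On unadjusted log2 CPM r was only 0.383 for PHKA1 and EFCAB7 and 0.634 for UGP2 and PANK4, beside 0.937 for PYGM and ALDOA. PHKG1 was closest to the muscle gene MYOZ3 (0.768). For PRKAG3 the closest gene, BPGM, reached 0.687 and only 0.513 without Landrace 8. For GBE1 it was GPAM, the acyltransferase that starts triglyceride synthesis (0.794), which had as few as 10 counts in a pig. Each is the highest over all genes tested that are not among the 9, and carries no test.

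Other genes of the pathway were taken from lists of 48 symbols, of which 40 were in the files and 36 were tested. For breed 10 of the 36 were higher and 8 lower in Landrace, for RIN 11 were higher and 7 lower, where the shares over all genes were 15.6% and 17.5% for breed and 23.9% and 27.9% for RIN, and for age and FCR edgeR called none. Among the other breakdown genes 5 of 11 were higher and 3 lower for breed. PGM2L1, a relative of phosphoglucomutase, averaged 97.1 ± 21.2 CPM over Duroc and 146 ± 34.3 CPM over Landrace pigs (log2 0.95, SE 0.156, edgeR FDR = 3.7e-05). The phosphorylase kinase subunit PHKB was at 358 ± 60.8 and 398 ± 84.4 CPM (0.48, SE 0.121, FDR = 0.00399). The liver-type phosphorylase PYGL went against its muscle counterpart PYGM, with 23.4 ± 3.78 CPM over Duroc and 17.4 ± 2.44 CPM over Landrace pigs (-0.57, SE 0.0904, FDR = 2.6e-05).

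All 3 glucose entry genes tested were lower in Landrace: the glucose transporter SLC2A4 (-0.60, SE 0.113, edgeR FDR = 0.000240) and the hexokinases HK1 (-0.72, SE 0.183, FDR = 0.00397) and HK2 (-0.63, SE 0.268, FDR = 0.0812). Of the other AMPK subunits 1 of 6 was higher and 2 were lower. The catalytic subunit PRKAA2 was higher like PRKAG3 (0.52, SE 0.112, edgeR FDR = 0.00103), whereas the alternative regulatory subunits PRKAG1 (-0.40, SE 0.126, FDR = 0.0188) and PRKAG2 (-0.60, SE 0.208, FDR = 0.0308) were lower. In the remaining lists, GSK3B, a kinase that inactivates glycogen synthase, was higher in Landrace (0.26, edgeR FDR = 0.0352), 1 of 3 synthesis genes. So were PPP1R1A, an inhibitor of protein phosphatase 1 (0.26, FDR = 0.0316), 1 of 8 phosphatase genes, and PRKAR1A (0.28, FDR = 0.0627) and PDE4D (0.48, FDR = 0.0972), 2 of 5 genes of protein kinase A and adrenergic signalling.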

How the data were processed

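Per the labels and the study's methods, RNA of each muscle sample was selected for poly(A) and sequenced as pairs without strand marking. The authors trimmed with Trimmomatic 0.39, aligned to Sscrofa11.1 with STAR 2.7.1a and deposited, for each of 41 pigs, whole counts of pairs per Ensembl gene without normalization. The unstranded column was used here. Pairs on no single gene (19.1% to 30.1% per pig) stayed out of the totals. Breed, FCR, RIN, age and batch, which per the study's methods is the slaughter day, came from the labels. The methods word FCR as growth over feed, but the size of the values is that of feed over growth. Pigs were numbered within a breed in the order of the records, and no sample was left out. Separate pigs are the replicates.

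Genes were filtered by filterByExpr (count 10, total 15) and fitted with the quasi-likelihood test of edgeR 4.0.16 (R 4.3.3) with TMM normalization in a model of breed, RIN, FCR, age and the 5 batches (as a factor), and all tests were two-sided. The SE is the change divided by the square root of its F statistic. FDR is the Benjamini-Hochberg value over all genes tested, with the study's threshold of 0.1. CPM used TMM library sizes, and log2 CPM a prior count of 2. Correlations used 100000 permutations. Alternatives included DESeq2 1.42.0 (at least 5 counts in every pig), limma 3.58.1 with voom, other scalings, filters, covariates and samples. The 9 genes, the lists and the tests were chosen with earlier results of these data known. The rule for named genes takes the 9 genes, other pathway genes where they passed for breed (at most 4 per list, by p, of which 1 is not reported here), and the most correlated gene of each. Steps were tested on simulated data first. Of planted log2 changes per 0.1 of FCR, 80.9% were recovered at 0.3 and 3.52% at 0.1. Of planted breed differences, 88.4% were recovered at 1, 45.5% at 0.5 and 2% at 0.3. The share of false calls reached 12.5% (FCR at 0.1). The 0 calls for FCR therefore do not show that changes near 0.1 are absent. Levels were not divided by transcript length, so they are not compared between genes, and gene sequences were not used here.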

Additional observations from a re-analysis of the deposited data

How the results depend on the processing

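No paired analysis was possible because replicate numbers were given in the order of the records and the breeds share no animals. Of the alternatives to the results above, 623 left the direction and the side of the threshold as they were, 10 lost a call, 6 gained one and 36 turned the direction. The number of the 9 genes that passed for breed was 5 in all settings but 1, the added fibre score, with 2. For RIN it was 8 with library size scaling and 3 without the 2 pigs with a RIN below 7 (PHKA1, GYG1 and PPP1R3A), and 4 to 6 elsewhere. Library size scaling also moved the median log2 change of all genes to -0.18 for breed and 0.30 per unit of RIN, so its values are relative to those. With it PYGM no longer passed for breed (0.13, edgeR FDR = 0.324) and GYS1 did (-0.27, FDR = 0.0879). Over all genes, the count that passed for breed was 3692 and fell to 2339 with the fibre score. For age it was 196, with 545 in DESeq2, 45 with library size scaling, 99 with no filter, 814 with batch as a number and 69 without RIN. For FCR, where edgeR called 0 genes, DESeq2 called 5 over both breeds, 10 in Duroc, 4 in Landrace and 1 for the interaction, and edgeR without age 1 in Landrace. The cause of the changes was not tested. Without Landrace 8, chosen after seeing the data, no count of calls changed by more than 1.5 times.

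Under library size scaling the estimates that turned were PHKG1 for breed (-0.036), PYGM (0.10) and PHKG1 (0.27) for RIN, PHKG1 (0.029) and PRKAG3 (0.041) for age, PHKA1 (0.041) and PRKAG3 (0.045) for FCR, GYG1 (0.0074), PRKAG3 (0.025) and PPP1R3A (0.016) for FCR within Landrace and PHKG1 (-0.0070) for FCR by breed. With the fibre score they were PHKG1 for breed (-0.10), GYS1 for RIN (-0.0022), PHKG1 (0.014), GBE1 (-0.016) and PRKAG3 (0.025) for age, and PHKA1 (0.0065) and PRKAG3 (0.014) for FCR, and with the adipocyte score PRKAG3 for FCR (0.011). Without RIN they were PPP1R3A for breed (-0.085), PRKAG3 (0.0033) and PPP1R3A (0.011) for age and PPP1R3A for FCR (-0.039). Without age they were PPP1R3A for FCR (-0.0047), PHKA1 (-0.019) and GYS1 (-0.0017) for FCR within Landrace and UGP2 for FCR by breed (0.0016). With no filter they were PHKG1 for RIN (0.028) and PRKAG3 for FCR (0.0011), and with strand sums GYS1 for breed (0.090). Without Landrace 8 they were PRKAG3 for age (0.022), PHKA1 (0.012) and PRKAG3 (0.033) for FCR, PRKAG3 for FCR within Landrace (0.064), and PYGM (0.036) and GBE1 (-0.059) for FCR by breed. None of these passed except PHKG1 for RIN with library size scaling.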

Other observations

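Other genes of the pathway lists also moved with RIN, in both directions. They are named here after their values were seen. In phosphorylase kinase PHKB rose (log2 0.69 per unit of RIN, edgeR FDR = 1.3e-06) along with PHKA1, while PHKG2, the catalytic subunit best known from liver, fell (-0.74, FDR = 1.5e-05) and PHKG1 did not pass (-0.04). Of the 6 other AMPK subunits 3 rose with RIN and 1 fell. PRKAB2 (0.45, edgeR FDR = 4.2e-05), PRKAA2 (0.38, FDR = 0.000507) and PRKAB1 (0.24, FDR = 0.0122) rose, and PRKAG2 fell (-0.32, FDR = 0.0866). In protein kinase A the regulatory subunit PRKAR2A rose (0.79, edgeR FDR = 3.2e-05) and the catalytic subunit PRKACA fell (-0.30, FDR = 0.00297). The phosphatase inhibitor PPP1R1A fell (-0.50, edgeR FDR = 2.5e-07) and the catalytic subunit PPP1CB rose (0.48, FDR = 0.00251), as did PPP1R3G (0.43, FDR = 0.0541) and PPP1R3D (0.66, FDR = 0.0753), relatives of PPP1R3A.

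Landrace 27, with a RIN of 6.6, had the lowest value of all 41 pigs for the 4 synthesis genes, at 471 CPM for GYS1, 41.9 CPM for GYG1, 56.9 CPM for UGP2 and 4.10 CPM for GBE1. It also had the lowest PPP1R3A of the Landrace pigs (74.6 CPM) and a low PHKA1 (504 CPM), beside 22838 CPM of PYGM, 157 CPM of PHKG1 and 93.7 CPM of PRKAG3. Landrace 1, with a RIN of 6.5, had 747, 91.5, 83.9 and 9.27 CPM for the same 4 genes.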
